A study of Mus musculus with 46 samples.

Results

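The constitutive proteasome genes are 43 of the 53801 genes in an RNA-seq count table of mouse striatal glia. They were chosen by symbol as the protein-coding genes whose names begin with Psma, Psmb, Psmc, Psmd, Psme or Psmf followed by a digit, with the inducible catalytic subunits Psmb8, Psmb9 and Psmb10 left out. By role they are 8 genes of the alpha ring, 8 of the beta ring, 6 ATPases of the regulatory base, 3 scaffold or ubiquitin-receptor subunits, 8 lid subunits, 3 base assembly chaperones and 6 activators or inhibitors. The last, Psmc3ip, shares the prefix only and encodes a recombination factor.

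The proteasome is the protease that degrades most ubiquitin-tagged proteins. Its barrel, the 20S core, is built of outer alpha rings that gate the entrance and inner beta rings that cut, with Psmb5, Psmb6 and Psmb7 carrying the chymotrypsin-like, caspase-like and trypsin-like sites. A 19S cap recognises, unfolds and threads tagged substrates by means of its ATPases, while other caps, such as the PA28 ring encoded by Psme1 and Psme2, open the core without needing ubiquitin. Interferon raises Psme1, Psme2 and the inducible subunits Psmb8, Psmb9 and Psmb10, which take the places of Psmb5, Psmb6 and Psmb7.

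The study profiled glial progenitors sorted from the striatum in mouse models of Huntington disease. All mice carried a reporter that puts EGFP under PDGFRA, a receptor of glial progenitors. R6/2 mice bear a short fragment of the human HTT gene with an expanded CAG repeat as a transgene, and zQ175 mice have the expansion in their own Htt gene. Each library was polyadenylated RNA from a pool of striata of 1 genotype within a litter, taken from 3 to 4 mice, or from 4 to 8 mice at 1 year. The subventricular zone was discarded, the tissue was digested with papain, and live EGFP-positive cells were sorted.

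The R6/2 line gave 5 wild-type and 6 R6/2 pools at 6 weeks, and 7 wild-type and 7 R6/2 pools at 12 weeks. The zQ175 line gave 6 wild-type and 6 zQ175 pools at 12 weeks, and 4 wild-type and 5 zQ175 pools at 1 year. The sex of the mice and the number of zQ175 alleles they carried were not given in the sources used here.

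The 46 libraries held between 23338185 and 49166260 estimated reads. The sort label and the transcripts did not coincide: summed CPM (counts scaled to library size by TMM) of 15 mature oligodendrocyte markers ranged by group median from 55326 to 161456, against 197 to 853 or, in R6/2 mice at 12 weeks, 1886 for 12 progenitor markers, and Pdgfra was at a median of 1.58 CPM in wild-type mice at 1 year. Replicate 7 of the R6/2 group at 12 weeks stood apart from its group, with 2.72% mitochondrial counts against a group median of 1.02% and 4605 CPM summed over the 31 core and cap subunits against 3235 to 3609 in the other 6 pools. Replicate 1 of the R6/2 group at 6 weeks was alike, at 2.57% and 4752 CPM. Results that rest on either pool are given with and without it. In such sorted bulk samples, fewer cells of a type and less RNA per cell cannot be told apart.

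Promoters are printed for 3 members: Psme1, which had the largest fold change between genotypes in R6/2 mice, its PA28 partner Psme2, and Psmb6, a catalytic subunit. The RefSeq promoter table for GRCm38.p6 held 36 of the 43 members, each as a 300-base window of 250 bases before and 50 bases after a gene start. In Psme1 and Psme2 the capitals mark an interferon-stimulated response element, searched as GAAA, any 2 bases and GAAA, or a gamma-activated site, TTCNNNGAA, and in Psmb6 the core of the antioxidant response element, TGACNNNGC or TGAGNNNGC, each on both strands. The windows are chr14:55578244-55578543 on the plus strand for Psme1, chr14:55591052-55591351 on the minus strand for Psme2 and chr11:70525107-70525406 on the plus strand for Psmb6.
Psme1: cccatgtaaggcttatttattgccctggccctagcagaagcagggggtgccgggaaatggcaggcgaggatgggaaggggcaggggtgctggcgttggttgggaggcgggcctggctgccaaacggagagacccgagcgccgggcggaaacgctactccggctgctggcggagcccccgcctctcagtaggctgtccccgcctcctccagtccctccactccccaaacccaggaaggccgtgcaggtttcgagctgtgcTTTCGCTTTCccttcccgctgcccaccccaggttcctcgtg
Psme2: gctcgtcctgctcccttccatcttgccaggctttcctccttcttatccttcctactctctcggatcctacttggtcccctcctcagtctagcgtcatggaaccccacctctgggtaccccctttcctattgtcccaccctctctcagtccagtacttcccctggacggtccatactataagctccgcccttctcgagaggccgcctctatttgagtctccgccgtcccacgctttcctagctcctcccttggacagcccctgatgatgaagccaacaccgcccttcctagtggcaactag
Psmb6: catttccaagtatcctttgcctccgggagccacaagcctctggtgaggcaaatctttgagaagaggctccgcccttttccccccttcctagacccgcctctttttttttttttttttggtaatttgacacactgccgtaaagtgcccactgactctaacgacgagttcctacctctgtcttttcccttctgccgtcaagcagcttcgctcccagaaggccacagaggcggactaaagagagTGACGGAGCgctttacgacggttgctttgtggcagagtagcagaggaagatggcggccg

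The Psme1 window holds 1 match to the interferon-stimulated response element, on the minus strand at bases 260 to 269 of the window. It lies just past the RefSeq start on which the window is set. In GENCODE M21, the source of the gene coordinates given here, Psme1 begins upstream of this window, at 55578123. The Psme2 window holds no match to either interferon motif. Across the members, 4 of 36 promoters held the interferon-stimulated element, those of Psmb3, Psmd4, Psmd9 and Psme1, or 11.1% against 3.99% of 27018 genes. The gamma-activated site was found in 1 member, Psmd2, or 2.8% against 9.55%. The antioxidant core was found in 16 members, or 44.4% against 30.76%, and the CCAAT box in 14, or 38.9% against 41.07%. These are matches of letters only.

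Most of the family was abundant in every group. The count divided by library size and by exon length, in CPM per kb, orders the genes. In wild-type mice at 6 weeks the highest were Psmb2, a beta subunit, at 118 ± 6.8 (SD, n = 5) CPM per kb, Psma6, an alpha subunit, at 107 ± 14 and the ATPase Psmc1 at 95.4 ± 3.5. The spread of Psma6 reached both of its neighbours in this order. The catalytic subunits Psmb5 and Psmb6 followed at 92.7 ± 13 and 83.3 ± 10. At the low end stood the inhibitor Psmf1 at 5.75, Psme1 at 4.87 and Psme4 at 2.99 CPM per kb. Psme2b, a near copy of Psme2 with which it can share reads, was at 2.31, and Psmc3ip at 0.748. Psma8, the alpha subunit of the testis, was at 0 in 29 of 46 libraries and had at most 34 reads, and Psmb11, the beta subunit of the thymus, was at 0 in 23 and had at most 19. Neither passed the filter on low counts in the comparisons between genotypes, which leaves 41 members tested.

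The subunits that varied most between the groups of mice were those of the 20S core. The beta ring's mean log2(CPM + 1) was 6.81 ± 0.14 (SD) in wild-type pools of the R6/2 line at 6 weeks and 6.70 ± 0.10 at 12 weeks, against 7.56 ± 0.20 in the zQ175 line's wild-type pools at 12 weeks and 8.32 ± 0.13 at 1 year. The 6 ATPases moved over a narrower range of group means, from 6.81 to 7.39, and the scaffold and receptor subunits from 7.35 to 7.68. Among wild-type pools the beta-ring values of the zQ175 line, 7.18 and upward, lay above those of the R6/2 line, which reached 6.96. Line and the batch of handling cannot be told apart here, since no label gives a batch and no pool joins the lines.

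**Figure D1:**
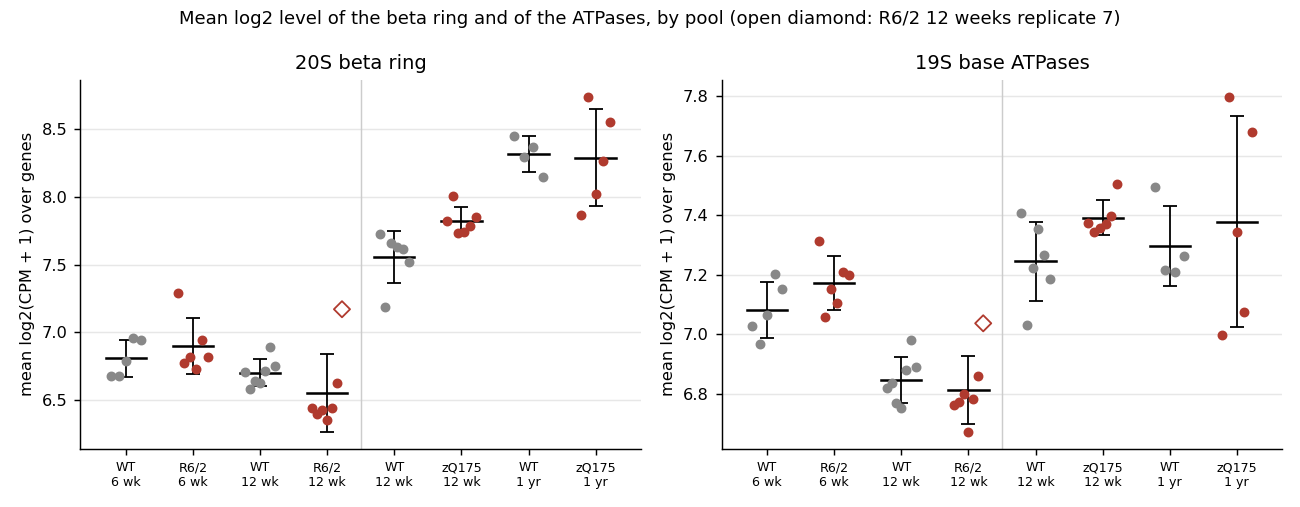
Mean log2(CPM + 1) of the 20S beta ring and of the 19S ATPases in each of the 46 pools, by group, with group means and SD. The beta ring spans group means from 6.55 in R6/2 mice at 12 weeks to 8.32 in wild-type mice at 1 year, the ATPases only 6.81 to 7.39, and replicate 7 of the R6/2 group at 12 weeks lies above the rest of its group.

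In R6/2 mice at 6 weeks, 1 member of 41 rose, Psme1, and no member fell. A gene is called changed at an adjusted p below 0.05 from edgeR's quasi-likelihood test over all genes tested, a threshold that 4.66% of them passed in this comparison, 2.33% as higher and 2.33% as lower. Psme1 encodes the alpha chain of PA28 (chromosome 14, 55578123 to 55581529, plus strand). It stood at 9.39, 10.2, 11.4, 11.1 and 11.6 CPM in the wild-type pools, and ran from 16.2 through a median of 21.4 to 26.3 CPM in the 6 R6/2 pools. Every R6/2 pool lay above every wild-type pool, with a log2 fold change of 0.99 ± 0.14 (SE), or 1.99-fold higher (adjusted p = 0.00188).

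Its partner Psme2, the beta chain of the same ring, did not pass the test at 6 weeks. The wild-type pools had 30.2, 25.2, 29, 31 and 25.5 CPM of Psme2, and the R6/2 pools 27.7 to 44.3 with a median of 31.5. These ranges overlap, and the log2 fold change was 0.24 (adjusted p = 0.406). Psme4, which encodes the nuclear cap PA200, had 32.3, 19, 27.4, 24.3 and 22.5 CPM in wild-type pools and 12.6 to 24.4 in R6/2 pools, a log2 fold change of -0.44 ± 0.18 (adjusted p = 0.211).

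Psmd14, the lid's deubiquitinase that removes the ubiquitin chain, had 87.3, 75.8, 84.6, 83.4 and 86.1 CPM in wild-type pools and 87.9 to 115 in R6/2 pools. All R6/2 pools were higher, but the adjusted p was 0.0669 for a log2 fold change of 0.30 ± 0.085. Without replicate 1 of the R6/2 group it passed, at 0.26 ± 0.072 (adjusted p = 0.0483), which made 2 members called higher, where 6.85% of all genes were called. The groups did not overlap for 2 members, Psme1 and Psmd14, or 4.88% of those tested, against 6.14% of all genes. The catalytic subunits did not pass: Psmb5 had a log2 fold change of 0.12, Psmb6 of 0.09 and Psmb7 of 0.09. Nor did the receptor Psmd4 at 0.02, the nuclear PA28 gene Psme3 at -0.04 or Psmf1 at 0.01.

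The other values at 6 weeks were small and mostly positive. The log2 fold change was above 0 for 36 members and below 0 for 5, with a median of 0.09 against 0.02 over all genes. Without replicate 1 of the R6/2 group these medians were 0.04 and 0.01, and without replicate 2 of the wild-type group 0.06 and 0.02. With all pools, 6 members against 2501 of 14912 genes had an unadjusted p below 0.05. The median was 0.11 over the alpha ring, 0.11 over the beta ring, 0.10 over the lid and 0.07 over the ATPases. Mature oligodendrocyte markers were lower at the same time, 13 of 15 by the test, with summed levels of 83733 to 118064 CPM in R6/2 against 160284 to 164133 CPM in wild-type pools. Their part in these differences was not tested.

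At 12 weeks in R6/2 mice 1 member rose and 2 fell, where 38.1% of all genes tested were called, 19% as higher and 19.1% as lower. The riser was again Psme1, and the members called lower were Psme4 and the ATPase Psmc1. The wild-type pools had 9.33 to 14.7 CPM of Psme1 with a median of 10.9, and the R6/2 pools 27.6 to 40.6 with a median of 32.9. The ranges were far apart, and the log2 fold change was 1.55 ± 0.12, or 2.92-fold higher (adjusted p = 1.87e-08).

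Psme4 ran the other way. Its wild-type pools spanned 27 to 38.4 CPM with a median of 33.4, and its R6/2 pools 14.7 to 26.7 with a median of 24.4. Every R6/2 pool was below every wild-type pool, by a log2 fold change of -0.58 ± 0.12, or 1.50-fold (adjusted p = 0.000853). The lowest value, 14.7 CPM, came from replicate 7, and without it the log2 fold change of Psme4 was -0.48 (adjusted p = 0.000306). Psme1 and Psme4 were the members whose groups did not overlap, 4.88% of the members against 17.8% of all genes. Psmc1, a 19S ATPase, was at 126 to 149 CPM in wild-type and 112 to 138 in R6/2 pools, which overlap, and differed by -0.18 ± 0.065 in log2 terms (adjusted p = 0.039). Its call was lost in 10 of the 14 fits that left out 1 pool.

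Psme2 did not follow Psme1. At 12 weeks it was at 20.3 to 32.6 CPM, median 23.2, in wild-type pools and at 21.2 to 46.5, median 27.4, in R6/2 pools, and its log2 fold change was 0.23 (adjusted p = 0.289), or 0.08 without replicate 7 (adjusted p = 0.577). The ratio of Psme1 to Psme2 per kb had a median of 0.374 in wild-type pools (0.321 to 0.428) and 0.978 in R6/2 pools (0.698 to 1.17). At 6 weeks it was 0.312 (0.248 to 0.364) and 0.514 (0.390 to 0.629). Neither pair of ranges overlaps, so the PA28 transcripts were closer to parity in R6/2 pools at both ages. This ratio was not itself tested.

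**Figure D2:**
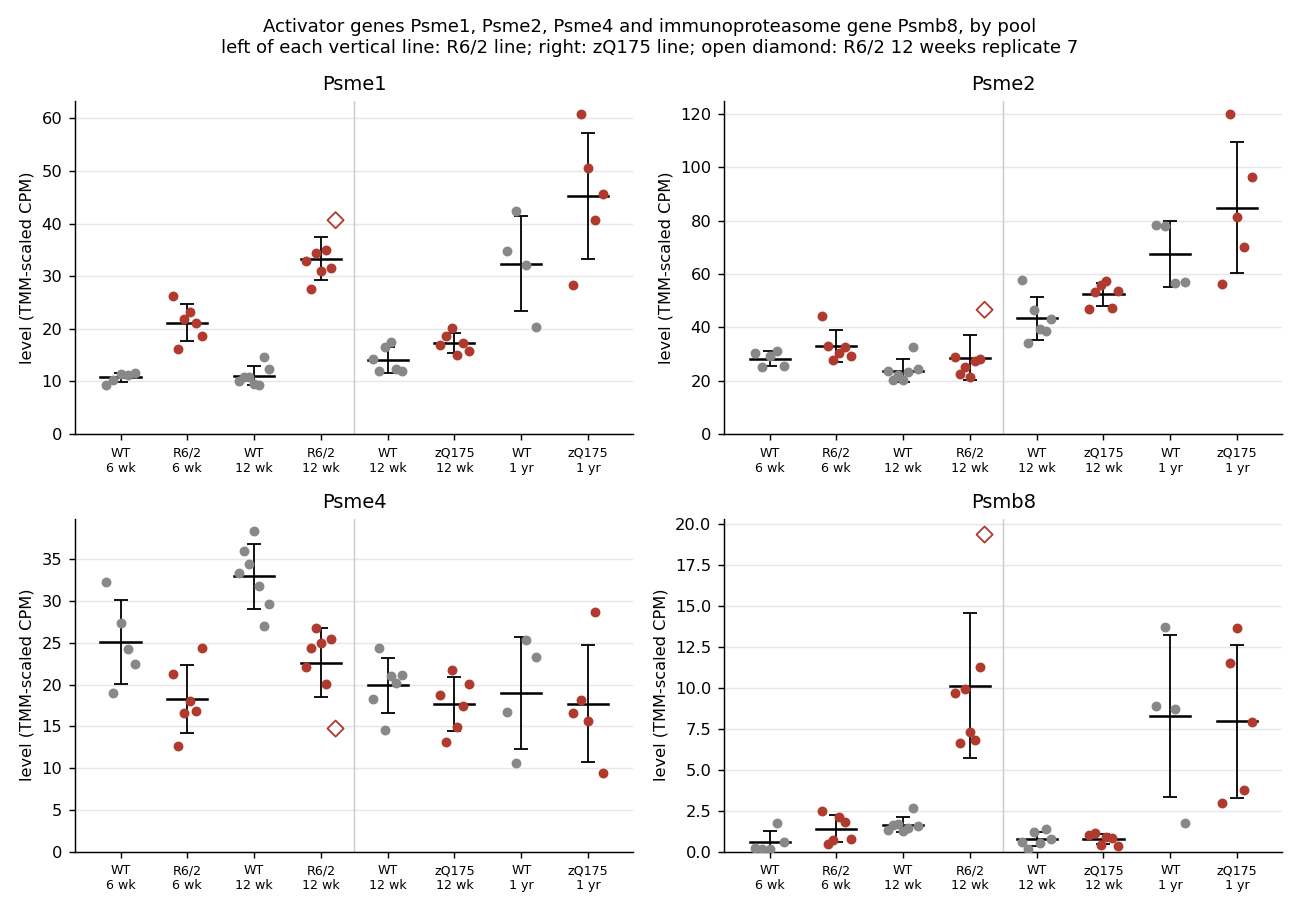
Levels in CPM of the PA28 genes Psme1 and Psme2, the PA200 gene Psme4 and the inducible subunit Psmb8 in every pool of the 8 groups, with group mean and SD. Replicate 7 of the R6/2 group at 12 weeks is an open diamond; Psme1 has no R6/2 pool below 16.2 CPM, while wild-type pools of that line reach 14.7 CPM.

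The inducible catalytic subunits, which are not members, rose in the same R6/2 pools. At 12 weeks Psmb8 was 1.26 to 2.68 CPM in wild-type and 6.65 to 19.4 in R6/2 pools, 5.99-fold higher (adjusted p = 5.61e-07). Psmb9 was 3.35-fold and Psmb10 1.94-fold higher. At 6 weeks only Psmb10 passed, 2.24-fold higher (adjusted p = 0.00567). All remained minor beside the constitutive genes: per kb, the 3 inducible subunits made up 3.85 to 5.34% of the catalytic transcripts in R6/2 pools at 12 weeks, against 1.43 to 2.06% in wild-type pools. Of 20 interferon-stimulated and antigen-processing genes, 19 rose at 12 weeks and 11 at 6 weeks. Among them at 12 weeks were the transcription factor Irf1, 4.28-fold, the peptide transporter Tap1, 6.00-fold, the class I light chain B2m, 5.57-fold, and the class I transactivator Nlrc5, 8.21-fold.

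The rest of the 12-week result depended on replicate 7. With all 7 R6/2 pools, no core ring subunit passed: the trypsin-like subunit Psmb7 had a log2 fold change of -0.26 (adjusted p = 0.0572), the caspase-like Psmb6 one of -0.30 (adjusted p = 0.07) and the structural beta subunit Psmb1 one of -0.31 (adjusted p = 0.0527). Without replicate 7, 14 members were called lower and 1 higher, where 46.4% of all genes were called. The members' share was then 36.6%. By direction, 3550 of 15142 genes were called higher and 3476 lower. Replicate 7 was singled out in part by its summed core and cap level, so tests of these genes without it are not independent of that choice. Replicate 6 had the highest such level of the wild-type pools, at 3963 CPM. Without it instead, 1 member was higher and 1 lower, or 4.88% against 35.8% of all genes.

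Of the 7 beta-ring genes tested, 6 fell without replicate 7, with a median over the ring of -0.26. In log2 terms Psmb6 fell by 0.41 ± 0.068 (adjusted p = 8.87e-05), Psmb1 by 0.40 (adjusted p = 0.000407) and Psmb7 by 0.33 (adjusted p = 0.000679). Psmb3, Psmb2 and Psmb4 fell by 0.26, 0.24 and 0.21. In the alpha ring 3 of 7 fell, led by Psma7 at -0.37 (adjusted p = 0.00187). The other called members were the ATPases Psmc1 and Psmc3, the lid subunits Psmd8 and Psmd13, and Psme4. Psmb5 was not among them.

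Among the catalytic subunits, replicate 7 was the highest of its group. Psmb6 was at 129 to 159 CPM in wild-type pools. Replicate 7 had 183 CPM of Psmb6 and the other 6 R6/2 pools 101 to 127, so those 6 lay below every wild-type pool and replicate 7 above. For Psmb5, the chymotrypsin-like subunit, replicate 7 had 142 CPM, against 76.6 to 85.3 in the other R6/2 pools and 78.5 to 93.9 in wild-type pools. Psmb7 was at 68.6 to 85.2 CPM in wild-type and 54.7 to 86.4 in R6/2 pools, with a median of 59.2.

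**Figure D3:**
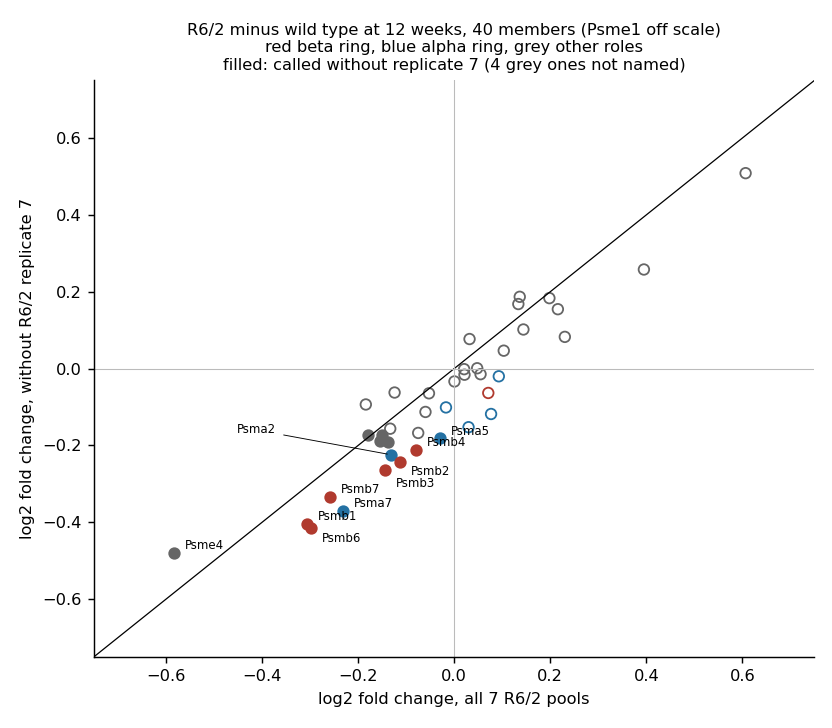
Log2 fold change, R6/2 minus wild type at 12 weeks, with all 7 R6/2 pools (x axis) and without replicate 7 (y axis). Shown are 40 of the 41 tested members. Filled points were called without replicate 7. Beta-ring genes (red) such as Psmb6, at -0.30 and then -0.41, lie below the line of equality, and the 14 filled members called lower all lie below 0.

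The remaining roles changed little at 12 weeks. Psmd14 had 79.5 to 109 CPM in wild-type and 95.4 to 145 in R6/2 pools, a log2 fold change of 0.22 (adjusted p = 0.0942). The scaffold Psmd2 had 290 to 336 CPM in wild-type and 202 to 322 in R6/2 pools (log2 fold change -0.18). Psmd4 was at -0.06, Psme3 at 0.14, Psmf1 at 0.13 and the misnamed Psmc3ip at 0.61 (adjusted p = 0.0638). None of the 3 assembly chaperones and none of the 8 lid genes passed. At an unadjusted p below 0.05 stood 10 of 41 members, where 38.1% of all genes passed even the stricter adjusted threshold. Over all 41 members the median was -0.02 against -0.03 over all genes. Without replicate 7 these medians were -0.09 and -0.01, and with any other single pool left out the members' median lay between -0.04 and 0.01.

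Genes that serve the proteasome from outside the family were mixed in R6/2 mice at 12 weeks. The share of all genes called there was 38.1%, 19% as higher and 19.1% as lower. None of 9 assembly factors and otherwise named subunits was called at 12 weeks, Pomp, the core's maturation factor, standing at -0.10. Among 13 deubiquitinases, shuttles and ligases, the proteasome-bound deubiquitinase Usp14 rose by 0.38 on the log2 scale, and 4 fell, the ubiquitin shuttle Ubqln1 by 0.41 among them. Of 11 genes for transcriptional control 4 rose and 2 fell, but Nfe2l1, the factor that raises proteasome genes when the proteasome is impaired, was not called (log2 fold change 0.13). Of 10 genes for ubiquitin supply and VCP, 3 fell. Of 12 heat-shock genes 4 fell, the cytosolic chaperones Hsp90aa1 by 0.80 and Hsp90ab1 by 0.47 among them.

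Cell-type markers moved with these results too. At 12 weeks 14 of 15 mature oligodendrocyte markers were lower, with summed levels of 49403 to 63246 CPM in R6/2 against 119653 to 126526 CPM in wild-type pools, and 9 of 12 progenitor markers were higher, at 1309 to 2018 against 341 to 890 CPM. Lower also were 5 of 12 microglial markers (summed 80.7 to 223 against 121 to 365 CPM), 5 of 10 endothelial, 4 of 9 mural and 7 of 8 fibroblast markers. Of 9 neuronal markers tested 5 were higher and 1 lower, at a summed 92.3 to 181 against 46.5 to 62.8 CPM. Astrocyte markers, of which 2 of 10 were higher and 7 lower, summed to 495 to 709 against 395 to 589 CPM. Of 16 immediate early genes that dissociation induces, 10 were higher and 2 lower, at 601 to 1530 against 489 to 637 CPM. Y-linked transcripts, which mark male mice in a pool, were at 0 in 4 of the 7 R6/2 pools and reached 126 CPM in the others, against 42.1 to 249.5 CPM in wild-type pools. The part of the immediate early genes and of the oligodendrocyte and progenitor markers in the result was not tested. No glial or vascular marker was at 0 throughout a group. With the summed level of the microglial, vascular, fibroblast, astrocyte and neuronal markers as a covariate, Psme1 stayed higher and Psme4 lower, Psme2 joined the members called higher, and Psmd2 and Psmd3 were called lower in place of Psmc1. With the Y-linked level as a covariate Psme1 stayed higher and Psme4 lower, and Psmc1 was not called.

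In zQ175 mice at 12 weeks no member was called, where 0.0835% of all genes were, 0.0487% as higher and 0.0348% as lower. At an unadjusted p below 0.05, however, stood 15 of 41 members and 2143 of 14372 genes, and DESeq2 called 0 members among 431 genes. The log2 fold change was above 0 for 33 members and below 0 for 8, with a median of 0.16 against -0.01 over all genes. It was 0.25 over the alpha ring and 0.26 over the beta ring, and each of the 14 ring genes was above 0. The 3 scaffold and receptor genes had a median of -0.02. Replicate 2 of the wild-type group stood low, with 4297 CPM summed over the core and cap subunits against 5033 to 5733 in the other 5 wild-type pools, and a beta-ring mean log2(CPM + 1) of 7.18 against 7.52 to 7.73. Without it the members' median was 0.11 against -0.00 over all genes, still with 33 members above 0, and no member was called, where 0.0274% of all genes were.

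The catalytic subunits were alike in size. Psmb6 had 201 to 291 CPM, median 269, in wild-type and 294 to 351, median 313, in zQ175 pools, which do not overlap (log2 fold change 0.26, adjusted p = 0.182). Psmb5 had 104 to 162 CPM, median 143, and 148 to 193, median 170 (log2 fold change 0.26, adjusted p = 0.23). Psmb7 had 96.2 to 134 CPM and 130 to 164 (log2 fold change 0.22, adjusted p = 0.276). Psmb5 and Psmb7 overlapped between genotypes. The groups did not overlap for 4 members, Psmb4, Psmb6, Psmc6 and Psmd13, all higher in zQ175 pools, or 9.76% against 1.57% of all genes.

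Neither PA28 gene passed in zQ175 mice. Psme1 was at 11.9 to 17.5 CPM in wild-type and 15.1 to 20.2 in zQ175 pools (log2 fold change 0.27, adjusted p = 0.344). Psme2 was at 34.2 to 57.8 and 46.9 to 57.2 CPM (0.25, adjusted p = 0.297). Psme4 had a log2 fold change of -0.20, Psme3 of -0.09, Psmf1 of 0.16, Psmd4 of 0.08 and Psmd14 of 0.23. None of the 3 inducible subunits and none of 18 tested interferon-stimulated genes was called.

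Coding length moved with the zQ175 values at 12 weeks. Across 12508 genes of the same libraries, the log2 fold change had a Spearman rank correlation of -0.43 with coding length, and across the 41 members one of -0.61. The 14 tested ring genes have coding sequences of 603 to 831 bases, and the scaffolds and the receptor Psmd4 have a median of 2724, with Psmd4 at 1137. Among genes of 500 to under 1000 bases, the median log2 fold change was 0.07 over all genes and 0.21 over the 24 members. The part of length in the result was not tested.

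**Figure D4:**
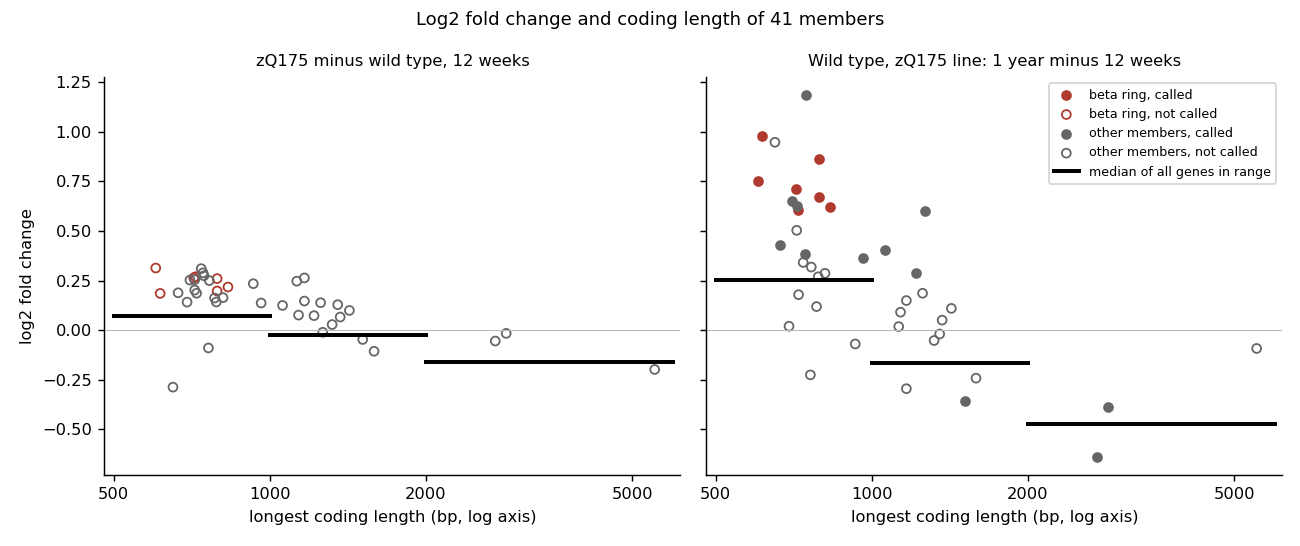
Log2 fold change against coding length (log axis) for the members, in zQ175 against wild type at 12 weeks and in wild-type mice of the zQ175 line at 1 year against 12 weeks, with medians of all genes by length bin. Members of 500 to under 1000 coding bases have medians of 0.21 and 0.47, above the all-gene medians of 0.07 and 0.25.

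At 1 year in zQ175 mice no member was called, where 0.00669% of all genes were, a single gene that was lower (0% higher), and none had an unadjusted p below 0.05, against 1706 of all genes. DESeq2 called 398 genes and again 0 members. Psme1 was at 34.8, 42.3, 32.2 and 20.4 CPM in wild-type and at 28.3, 60.8, 50.6, 40.8 and 45.5 CPM in zQ175 pools. The ranges overlap, and the log2 fold change, 0.51 ± 0.24, failed the test (adjusted p = 0.452). Psme2 was at 78.4, 78.1, 56.4 and 56.8 CPM in wild-type and at 56.4, 120, 81.3, 70.2 and 96.3 CPM in zQ175 pools, for which the log2 fold change was 0.36 (adjusted p = 0.54). These pools varied widely: Psmb6 was at 330, 640, 367, 382 and 544 CPM in zQ175 mice of that age and at 498, 445, 460 and 328 CPM in wild-type mice. Only the lid subunit Psmd11 did not overlap, at 146, 158, 145, 165 and 165 CPM in zQ175 and 167, 175.3, 202 and 168 CPM in wild-type pools, and it too failed the test (log2 fold change -0.15, adjusted p = 0.677). That is 2.44% of members without overlap, against 5% of all genes. The median over members was 0.10 against 0.02 over all genes, and -0.01 against 0.00 without replicate 3 of the zQ175 group. Psmb5 was at 0.10, Psmb7 at 0.01, Psmd4 at 0.17, Psmd14 at 0.25, Psme3 at 0.14, Psme4 at -0.05 and Psmf1 at 0.06.

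**Figure D5:**
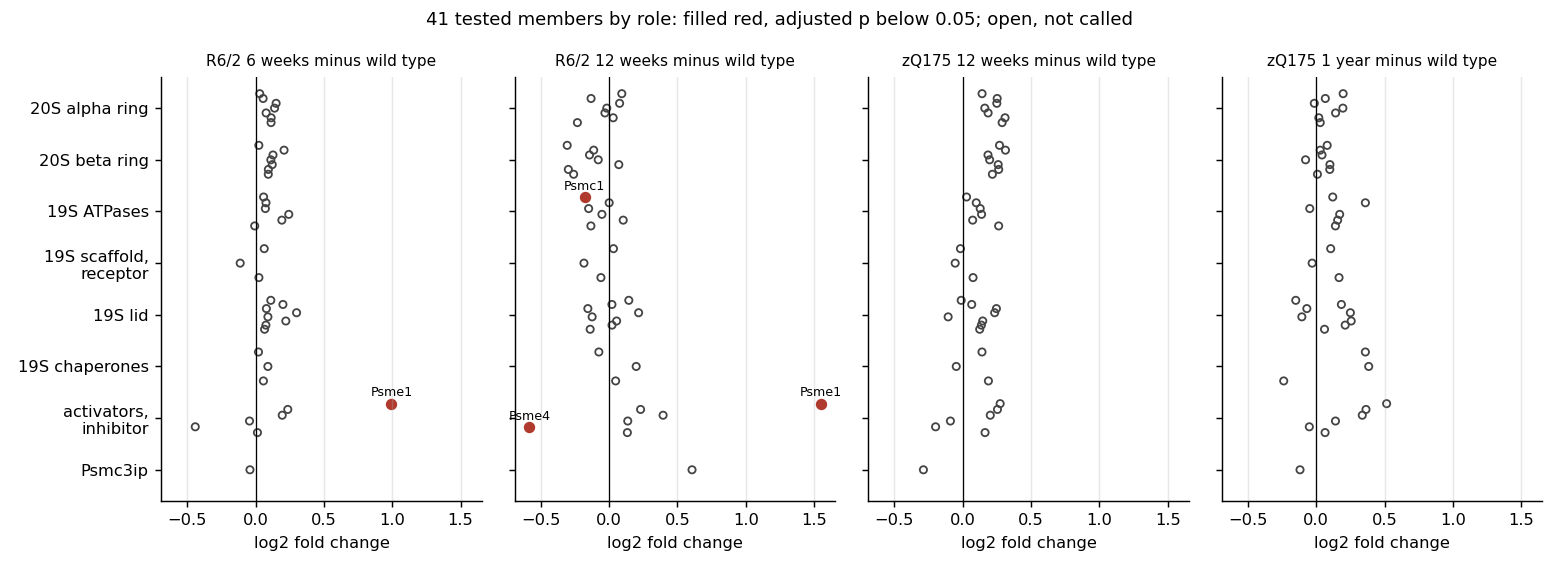
Log2 fold change of the 41 tested members, by role, in the 4 comparisons of mutant with wild-type mice. Psme1 stands at 0.99 and 1.55 in R6/2 mice at 6 and 12 weeks, Psme4 at -0.58 at 12 weeks, and the ring genes lie above 0 in zQ175 mice at 12 weeks.

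Whether the mutation's effect differed between lines at 12 weeks was tested as an interaction, in which 21.2% of all genes were called, 10.8% with a higher and 10.4% with a lower R6/2 effect. For Psme1 the R6/2 effect exceeded the zQ175 effect by 1.29 ± 0.17 on the log2 scale (adjusted p = 2.63e-06). For 6 members the R6/2 effect was lower: Psmb1 by -0.56, Psmb6 by -0.54, Psma7 by -0.50, Psmb7 by -0.46, Psmd13 by -0.38 and Psmc6 by -0.38. Of these 4 are ring genes. Psmb1 (adjusted p = 0.0133) and Psmb6 (adjusted p = 0.0141) led, and Psma7 (adjusted p = 0.0493) and Psmc6 (adjusted p = 0.0398) were lost in 19 and 13 of 26 fits that left out 1 pool. Without replicate 7 of the R6/2 group 16 members were lower and 1 higher, or 41.5% against 29.3% of all genes. With any 1 of 12 other pools left out 4 were lower; without replicate 6 of the R6/2 line's wild-type group, for example, 12.2% of members were called against 19.2% of all genes. The rank correlation of this line difference with coding length was 0.24 over 13789 genes and 0.23 over the members. The part of length in it was not tested. The lines were not mixed in any library group, so line and batch cannot be told apart here either.

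Between 6 and 12 weeks in the R6/2 line, 6.04% of all genes differed in their genotype effect, 2.85% higher and 3.19% lower at 12 weeks. Psme1 did so by 0.57 ± 0.17 (adjusted p = 0.0495), but 20 of 25 fits that left out 1 pool lost the call. Without replicate 7, the effect on 8 members was lower at 12 weeks than at 6 weeks and none was higher, or 19% of members against 10.9% of all genes. They were Psma7, Psmb1, Psmb2, Psmb6, Psmb7, Psmc1, Psmc3 and Psmc4. That fit kept replicate 1 of the R6/2 group at 6 weeks, which also stood high. Without replicate 1 alone, 1 member was higher and 0 lower, or 2.38% against 6.75% of all genes. In the zQ175 line no member's effect differed between ages, where 0.248% of all genes were called, 0.0726% as higher and 0.175% as lower.

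Wild-type mice were compared between ages, using the same wild-type pools as the comparisons of genotype. In the R6/2 line, 3 members were higher and 13 lower at 12 weeks than at 6 weeks, where 25.4% of all genes were called, 12.2% as higher and 13.1% as lower. Most of those that fell belong to the 19S cap: 5 of 6 ATPases fell, Psmc1 by 0.39 and Psmc2 by 0.34 on the log2 scale, with 4 of 8 lid genes, Psmd7 by 0.32 and Psmd13 by 0.28 at most. The ubiquitin receptor Psmd4 fell by 0.26 (adjusted p = 0.00769). Psma7 fell by 0.42, Psmb7 by 0.34 and Psmb2 by 0.23 in the core. Psme4 rose by 0.40, Psma3 by 0.35 and Psmd1, a scaffold, by 0.21. Psmc1 stood at 178, 183, 193, 179 and 190 CPM at 6 weeks and at 126 to 149 at 12 weeks, with no overlap. Of 12 fits that left out 1 pool, 8 lost the call for Psme4 (adjusted p up to 0.101), 3 that for Psmd11, 3 that for Psmd12 and 1 that for Psmc3. Over the members the groups did not overlap for 22%, against 13.6% of all genes. Mature oligodendrocyte markers were lower at 12 weeks in the same pools, 10 of 15 by the test with 1 higher, at a summed 119653 to 126526 CPM against 160284 to 164133 CPM at 6 weeks. Their part in these differences was not tested.

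In the zQ175 line, wild-type mice at 1 year had 16 members higher and 3 lower than at 12 weeks, where 39.8% of all genes were called, 18.4% as higher and 21.4% as lower. All 7 tested beta-ring genes rose, with a median of 0.71. Psmb3, a structural beta subunit, went from 143 to 221 CPM (median 199) at 12 weeks to 418, 366, 428 and 330 CPM at 1 year, 1.97-fold higher (adjusted p = 4.49e-05). Psmb5 reached 294, 245, 276 and 216 CPM, above all pools at 12 weeks, 1.82-fold higher (adjusted p = 0.00014). Psme1 was 2.27-fold higher (adjusted p = 0.000558) and Psme2 1.54-fold (adjusted p = 0.00769).

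The scaffolds moved oppositely. Psmd2 fell by 0.64 in log2 terms (adjusted p = 0.000411), from 224 to 287 CPM at 12 weeks to 174, 181, 153 and 149 CPM at 1 year, and Psmd1 by 0.39. The base assembly chaperone Psmd5 fell by 0.36, but with each pool left out in turn it failed the test in 8 of 10 fits (adjusted p up to 0.141). Further risers were Psma2 by 0.65 and Psma7 by 0.39 in the alpha ring, Psmd11, Psmd8 and Psmd7 in the lid, Psmd9 among the chaperones and the ATPase Psmc5. The calls for Psmc5, Psma7 and Psmd7 were lost in 5, 4 and 1 of those 10 fits. The groups did not overlap for 39% of members, against 31.5% of all genes. The inducible subunits rose as well, Psmb8 10.4-fold, Psmb9 5.48-fold and Psmb10 1.99-fold, and Pomp by 0.63, while Nfe2l1 fell by 1.22 on the log2 scale. Per kb, the inducible subunits made up 1.42 to 3.38% of the catalytic transcripts at 1 year and 1.25 to 1.69% at 12 weeks. These ranges overlap.

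Other properties differed between the same pools. Markers of microglia (8 of 12), endothelium (5 of 10), mural cells (5 of 9) and fibroblasts (6 of 8) were higher at 1 year, and the mitochondrial share was 3.30 to 5.11% against 2.17 to 3.32%. Mature oligodendrocyte markers summed to 81009 to 101703 CPM at 1 year against 124224 to 141649 CPM at 12 weeks. Interferon-stimulated and antigen-processing genes summed to 376 to 665 against 224 to 265 CPM. The part of these 2 lists in the members' differences was not tested. With the other-cell marker level as a covariate, Psmb3 and Psmd11 alone remained called. The rank correlation of log2 fold change with coding length was -0.35 over 12785 genes and -0.71 over the members, and for 500 to under 1000 bases the medians were 0.25 and 0.47. No label gives a batch for either age, so age and batch cannot be told apart in either line, and in the zQ175 line the pools of the 2 ages were also made from different numbers of mice.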

How the data were processed

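RNA of 46 pools was measured by poly-A, unstranded RNA-seq, and the authors deposited expected counts per gene. Per the submitters' processing notes these came from CASAVA, STAR 2.5.2b and RSEM 1.3.0. Those notes name the human build GRCh38, and the mouse build was not given in the sources used here. Of the deposited expected counts 9.4% were not whole, and all were rounded before testing. Symbols came from GENCODE M21, on GRCm38, which held 53706 of 53801 identifiers and gave the coordinates. Counts were scaled by TMM and tested in edgeR 4.0.16 (R 4.3.3) by quasi-likelihood with Benjamini-Hochberg adjustment at 0.05 over all genes passing filterByExpr (minimum count 10, minimum total 15), fitting only the groups compared. The steps were tested on simulated data. A pool is a replicate. Reads of overlapping genes may be shared, among them Psmd9 with Gm26745 (25.5% of its exon bases), Psmc3ip with Mlx (21.2%) and Psmb5 with Mir686 (12.1%). Others are Psmb7 with Nek6, Psmd13 with Sirt3 and Psmc3 with Slc39a13. Reads of near copies (Psme2, Psme2b) may be shared too. Members named with values were the catalytic subunits, Psmd4, Psmd14, the activators, Psmf1 and up to 8 called members in each direction. Psmd2, the scaffold, was added for its values. Members and lists were chosen with earlier results of these data known. Some genes of these lists are not reported here. Alternatives were DESeq2 1.42.0, RLE scaling, limma 3.58.1 voom, no filter, 1 fit of all groups, marker and Y-linked covariates, a replicate block and leaving out pools.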

Additional observations from a re-analysis of the deposited data

Results flagged for a closer look

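Single pools lay far from their group for some genes, judged by the gap to the nearest other pool as a share of the group's range. Of 112 gene and group pairs checked over 14 genes, 16 stood out. The cut-offs give about 1 in 20 for independent values. Genes of the same pool vary together, so the count cannot be set against that rate. In R6/2 mice at 12 weeks, replicate 7 was the highest for 7 genes. It had 142 CPM of Psmb5 against 85.3 in the next pool, 183 of Psmb6 against 127, 142 of Psmd4 against 108 and 145 of Psmd14 against 116. It also had 46.5 CPM of Psme2 against 28.7, 19.4 of Psmb8 against 11.3 and 15.6 of Psmb10 against 9.13.

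In R6/2 mice at 6 weeks, replicate 1 had 131 CPM of Psmb7 against 101, 168 of Psmd4 against 134 and 44.3 of Psme2 against 33.1, and replicate 4 had 0.877 of Psmb9 against 0.455. In the wild-type pools of that line, replicate 6 at 12 weeks had 32.6 CPM of Psme2 against 24.3 and 2.68 of Psmb8 against 1.71, and replicate 4 at 6 weeks had 1.73 of Psmb8 against 0.61. In zQ175 mice at 12 weeks, replicate 3 was the lowest, with 138 CPM of Psmd14 against 154 and 179 of Psmc1 against 189.

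By the interaction test of edgeR, 6.04% of all genes differed in genotype effect between ages in the R6/2 line. Between lines at 12 weeks that share was 21.2%. Among the members and the 3 inducible subunits, the genotype effect differed between groups for 9 genes. Between ages in the R6/2 line this held for Psme1, by 0.57 ± 0.17 (adjusted p = 0.0495). Between lines at 12 weeks, as the R6/2 minus the zQ175 effect, it held for Psme1 by 1.29 ± 0.17 (adjusted p = 2.63e-06), for Psmb8 by 2.61 ± 0.50 (adjusted p = 0.000388) and for Psmb10 by 0.66 ± 0.24 (adjusted p = 0.0456). Of 26 fits that left out 1 pool, 16 lost the call for Psmb10. It was negative for Psmb1 at -0.56 ± 0.16 (adjusted p = 0.0133), Psmb6 at -0.54 ± 0.16 (adjusted p = 0.0141), Psma7 at -0.50 ± 0.18 (adjusted p = 0.0493) and Psmb7 at -0.46 ± 0.14 (adjusted p = 0.0194). It was also negative for Psmd13 at -0.38 ± 0.11 (adjusted p = 0.0149) and Psmc6 at -0.38 ± 0.13 (adjusted p = 0.0398).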

How the results depend on the processing

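Psme1 in R6/2 mice at both ages, Psme1 in the line difference and Psme4 at 12 weeks kept direction and call under every alternative run. The counts of members moved more. In R6/2 mice at 6 weeks, 2 were higher with DESeq2 and 2 with the Y-linked covariate. At 12 weeks, 4 were higher with DESeq2 and 2 with marker covariates, and the lower count was 1 with RLE scaling, no filter, 1 fit of all 8 groups or the Y-linked covariate, and 5 with limma voom. For the R6/2 age difference none was higher with limma voom, no filter, all groups, the Y-linked covariate (0 each), and marker covariates gave 1 lower. The line difference had 1 lower member with all groups, 2 with marker and 2 with Y-linked covariates. In wild-type ageing of the R6/2 line, 0 were higher and 5 lower with all groups, and 1 higher and 8 lower with marker covariates. In that of the zQ175 line, marker covariates left 2 higher and 0 lower and turned Psma7 to -0.00724 (edgeR, adjusted p = 0.989). Neither zQ175 comparison had a member called under any of these settings, although the genes called went from 12 to between 4 and 431 at 12 weeks and from 1 to between 0 and 1718 at 1 year. The median over all genes moved by over 0.1 only in zQ175-line wild-type ageing, from -0.03 to -0.15 with limma voom and to -0.14 with the replicate block, the members' median being 0.28 and 0.30. The causes were not tested.

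The labels do not say whether pools of the same replicate number are paired, and the main fits treated them as unpaired. In no comparison did every same-numbered pair correlate above 0.1, but so strict a rule cannot exclude pairing. In R6/2 mice at 12 weeks these correlations ran from -0.11 to 0.17. The replicate block gave 5 lower members in R6/2 mice at 12 weeks, 0 higher in the R6/2 age difference, 1 higher in wild-type ageing of the R6/2 line and 1 lower in that of the zQ175 line.

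Leaving out 1 pool gave 1 to 2 higher and 0 lower members in R6/2 mice at 6 weeks, 1 to 2 higher and 1 to 14 lower at 12 weeks, and 0 in both zQ175 comparisons. It gave 0 to 1 higher and 0 to 8 lower for the R6/2 age difference, 0 for the zQ175 one and 1 to 2 higher and 4 to 16 lower for the line difference. Wild-type ageing ranged over 2 to 3 higher and 10 to 14 lower in the R6/2 line and 13 to 17 higher and 2 to 3 lower in the zQ175 line. Psma8 and Psmb11, with at most 34 and 19 reads, were too low to compare.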

Other observations

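Support genes outside the family also differed with age in wild-type mice. Of all genes, 25.4% were called in the R6/2 line, 12.2% as higher and 13.1% as lower. In the zQ175 line 39.8% were called, 18.4% as higher and 21.4% as lower. In the R6/2 line at 12 weeks against 6 weeks, 6 of 9 assembly factors and otherwise named subunits fell, the core's maturation factor Pomp by 0.58 on the log2 scale, the ubiquitin receptor Adrm1 by 0.66 and the small cap subunit Sem1 by 0.56, and 5 of 10 genes for ubiquitin supply and VCP fell, the polyubiquitin gene Ubb by 0.81. In the zQ175 line at 1 year against 12 weeks, 6 of the 9 assembly factors and subunits rose, Sem1 by 1.23, and 1 fell.

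In zQ175 mice at 1 year the median log2 fold change was 2.05 over 12 progenitor markers, and over 15 mature oligodendrocyte markers it was -0.28, with none called, beside the median of 0.10 over the proteasome members. Of the values above 0, 74.6 to 78.0% were whole numbers in R6/2-line pools at 12 weeks, against 69.0 to 74.5% in all other pools.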
